A study of Mus with 2 samples.

Results

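Genes of the red cell membrane and of carbon dioxide handling were followed, 8 of the 27998 genes measured, each taken by its symbol. They were Epor, Car1, Car2, Slc4a1, Ank1, Rhd, Ermap and Cldn13. A maturing red cell builds a membrane in which a chloride and bicarbonate exchanger (band 3, the product of Slc4a1) is tied through ankyrin (the product of Ank1) to the spectrin skeleton beneath. Carbonic anhydrases convert carbon dioxide and water to bicarbonate, which band 3 then carries across the membrane. Erythropoietin, acting through its receptor (the product of Epor), keeps the early members of this lineage alive.

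Marrow of the tibia and fibula had been sorted for hematopoietic stem cells (HSCs) by the phenotype LSK FLT3- CD150+ CD48-, where LSK means lineage-negative, Sca1-positive and c-Kit-positive. The groups were Mx1-Cre Id2+/+ and Mx1-Cre Id2Δ/Δ mice aged 8 to 12 weeks, with 5 mice pooled, 1000 cells sorted and 1 10x Genomics library per genotype. Both groups carried Mx1-Cre, a recombinase under an interferon-responsive promoter that pIpC switches on in blood cells and in other interferon-responsive tissues, and per the study the cells were purified 2 weeks after pIpC. The Id2Δ/Δ sample was grouped by its title and its genotype label, although a clause elsewhere in its labels speaks of Id2+/+ bones. The question was how loss of Id2, an inhibitor of bHLH transcription factors, alters the cells. With 1 library per genotype no difference between genotypes could be tested, and every interval given is a 95% interval for counting error only, which leaves out the spread between mice, captures and cells.

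The libraries held 8612217 UMIs (unique molecular identifiers, 1 per captured RNA molecule) for Id2+/+ and 17140713 for Id2Δ/Δ. The analysis kept 333 and 625 cells, and 1 cell barcode occurred in both libraries. Erythroid-like cells, 35 and 156 of these, were clusters named by red cell markers that did not include the members. They carried less Ly6a and Kit, genes behind the sort, than retained cells, which is every cell not set aside as erythroid-like, neutrophil-like or haemoglobin-rich. Ly6a, which encodes Sca1, stood at 3.03 and 3.01 CPM, the number of its UMIs per 1000000 UMIs, against 88.6 and 64.9 CPM in retained cells. Kit, which encodes c-Kit, stood at 28.1 and 13.8 CPM against 122 and 80.0 CPM. Ly6a, unlike Kit, was among the HSC markers that had to be lower on average for a cluster to be named erythroid-like. There were 262 and 416 retained cells, at 7081 and 9663 UMIs in the median cell against 37549 and 40038 UMIs in erythroid-like cells. The retained cells were mixed: 28 and 44 lay in the HSC-like cluster, 47 and 72 in megakaryocyte-like clusters, and 14 and 86 in an unnamed cluster led by Vpreb3 and holding Vpreb1, Igll1 and Dntt, genes of early lymphoid cells, among its leading genes and no HSC marker. Further kinds were neutrophil-like cells (27 and 40) and haemoglobin-rich cells (9 and 13). Barcodes of 1 to 100 UMIs, called empty droplets here, held 46.3% and 22.4% of all UMIs, and their content stands for free RNA. Id2 itself had 22 UMIs in Id2+/+ retained cells and 0 in Id2Δ/Δ retained cells, where a count of 0 allows up to 0.640 CPM. Deletion takes the first exons and leaves the 3′ end, so a 3′ tag may lie outside the deleted stretch.

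The members are protein-coding genes, placed here on mm10 from the RefSeq annotation of GRCm38.p6. Epor lies on chromosome 9 from 21958897 to 21963576. Car1 (chromosome 3, 14766214 to 14808365) and Car2 (chromosome 3, 14886269 to 14900770) are neighbours of 1 gene family. Slc4a1 lies on chromosome 11 from 102348820 to 102365281 and Ank1 on chromosome 8 from 22974836 to 23150501. Rhd (chromosome 4, 134864536 to 134896172) and Ermap (chromosome 4, 119175457 to 119190013) share a chromosome, and Cldn13 lies on chromosome 5 from 134914250 to 134915530. The Ank1 span also holds Gm15816, a lncRNA with a row of its own, so reads there may be shared. Levels of different genes were not compared with each other.

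All 8 members were higher in erythroid-like than in retained cells in both libraries, each by at least 2-fold with an interval above 1. Of all genes with at least 20 UMIs, 9.49% passed that rule in Id2+/+ and 9.31% in Id2Δ/Δ. The median ratio over the members was 12.02 and 15.98, against 0.822 and 0.812 over all genes tested. Since these clusters were named as red cell-like, the direction is a description of them, and the size of the step is what differed from member to member.

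Epor, the erythropoietin receptor, stood at 139 CPM (119 to 160) in Id2+/+ and 151 CPM (142 to 161) in Id2Δ/Δ erythroid-like cells. Retained cells held 22.5 and 24.5 CPM, a ratio of 6.17 (4.47 to 8.66) and 6.15 (5.07 to 7.53). The interval of Id2Δ/Δ lay within that of Id2+/+. The receptor was seen in 32 of 35 and 154 of 156 erythroid-like cells.

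Among the carbonic anhydrases, Car1 reached 2093 CPM (2016 to 2172) and 2431 CPM (2392 to 2469) in erythroid-like cells. Its ratio to retained cells was 14.9 (13.2 to 16.9) in Id2+/+ and 30.9 (27.8 to 34.3) in Id2Δ/Δ, the highest of the members in Id2Δ/Δ. Single erythroid-like cells ranged from 43.8 to 4877 CPM of Car1 in Id2+/+, with a median of 1778 CPM. In Id2Δ/Δ they ranged from 43.3 to 5394 CPM, with a median of 2236 CPM.

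Car2, the fast cytosolic isoform also used outside the red cell, behaved differently from Car1. It stood at 5743 CPM (5615 to 5874) and 6495 CPM (6432 to 6558) in erythroid-like cells, and at 1766 and 1751 CPM in retained cells. The ratio was 3.25 (3.13 to 3.38) and 3.71 (3.62 to 3.80), the lowest of the 8 in both libraries. No erythroid-like cell was without it, and single cells spanned only 3622 to 8435 CPM in Id2+/+ and 2954 to 10568 CPM in Id2Δ/Δ.

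Band 3 and its anchor were sparse. Slc4a1 had 67 UMIs in Id2+/+ and 142 UMIs in Id2Δ/Δ erythroid-like cells, which is 50.8 CPM (39.4 to 64.5) and 22.5 CPM (19.0 to 26.5). It was found in 13 of 35 and 52 of 156 cells, so the median cell had none. Ank1 stood at 71.3 CPM (57.6 to 87.2) and 55.6 CPM (49.9 to 61.7) and was found in 32 of 35 and 131 of 156 cells. The ratio to retained cells was 12.04 (5.98 to 27.5) and 5.02 (3.16 to 8.36) for Slc4a1. For Ank1 it was 15.2 (7.91 to 32.7) and 11.3 (7.43 to 18.1).

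Of the remaining surface genes, Rhd, the mouse member of the Rhesus blood group family, stood at 506 and 633 CPM in erythroid-like cells, 11.99 (9.61 to 15.1) and 21.7 (18.3 to 25.9) times its level in retained cells. Ermap, an erythroid membrane protein of the butyrophilin-like type that carries the Scianna blood group in man, stood at 190 and 189 CPM with ratios of 17.7 (11.5 to 28.4) and 20.6 (15.2 to 28.7). Cldn13, a gene of the claudin family, stood at 443 and 598 CPM with ratios of 10.5 (8.40 to 13.3) and 20.7 (17.5 to 24.8). For Car1, Car2, Rhd, Ermap and Cldn13 the ratio was the larger in Id2Δ/Δ, and for Epor, Slc4a1 and Ank1 the smaller. These are differences that 1 library per genotype does not allow to be tested. For Car1, Rhd and Cldn13 the retained-cell level in this ratio was not above the haemoglobin level of free RNA in either library, and haemoglobin too stood higher in Id2+/+ than in Id2Δ/Δ retained cells (956 against 612 CPM). For Car1, 83 of the 299 Id2+/+ retained-cell UMIs came from 1 cell.

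**Figure D1:**
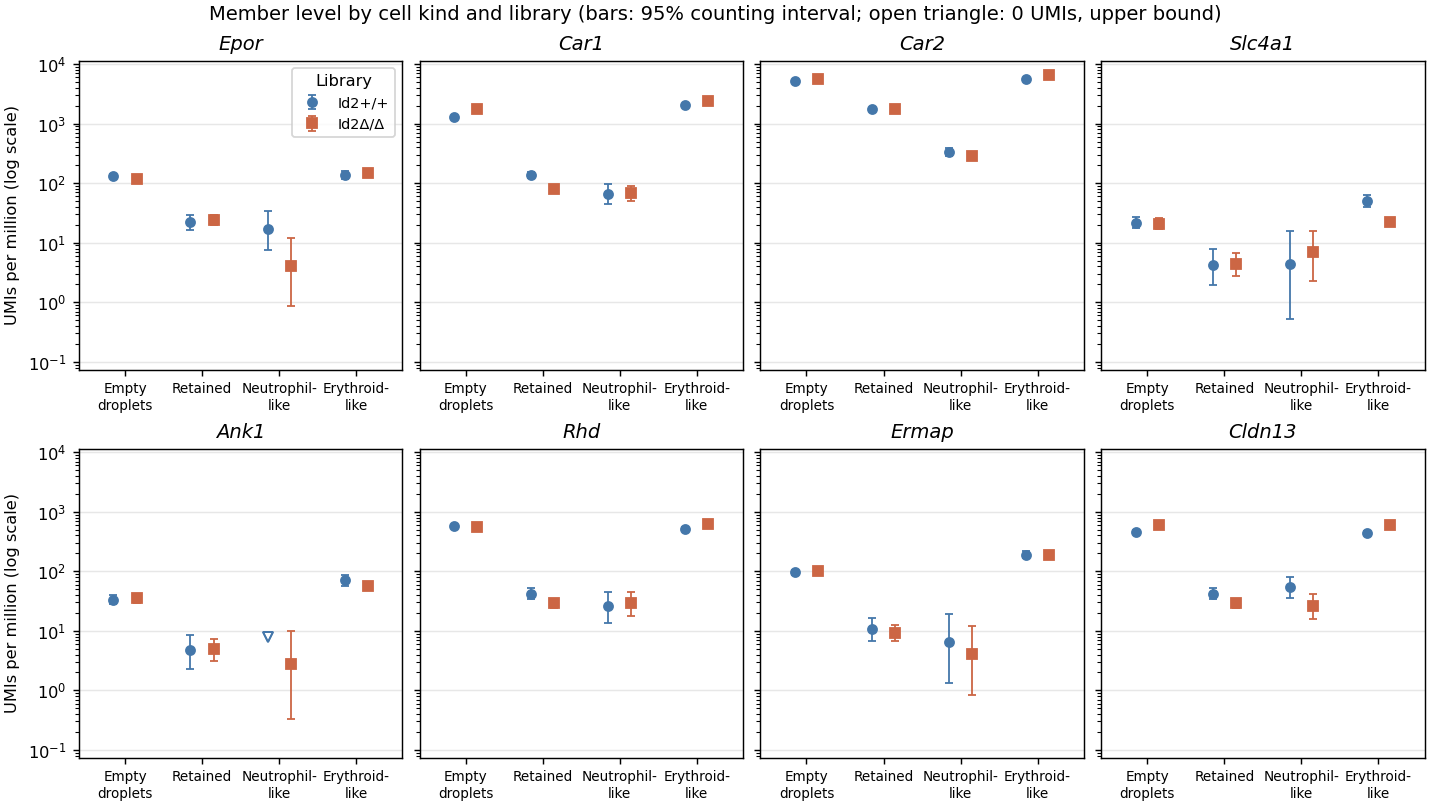
CPM of each member (vertical axis, log scale) in empty droplets, retained, neutrophil-like and erythroid-like cells of the Id2+/+ and Id2Δ/Δ libraries, as sums over cells with 95% counting intervals. Every member is higher in erythroid-like than in retained cells, and Car2 at 1766 and 1751 CPM in retained cells stands well above its 338 and 289 CPM in neutrophil-like cells.

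The genes around the members did not all move with them. Of 20 membrane skeleton and surface partners, 13 in Id2+/+ and 12 in Id2Δ/Δ were at least 2-fold higher in erythroid-like cells, and 2 and 3 were lower, where 27.6% and 30.2% of all genes tested were lower. Among the highest were Dmtn (23.3) in Id2+/+ and Add2 (20.1) in Id2Δ/Δ, which encode the actin bundler dematin and an adducin. The lowest in both were Slc2a1, a glucose transporter (0.0770 and 0.0228), and Tmod3, a tropomodulin (0.225 and 0.230), and the third in Id2Δ/Δ was Tmod1 (0.478). The median ratio of these partners was 3.43 and 3.75. Some of the partners were also naming markers of the erythroid-like clusters. Of 14 erythropoietin signalling genes tested, 1 was higher, Tfrc, the transferrin receptor, at 8.31 and 7.61, while 10 and 8 were lower. The lowest in both was Socs2, a suppressor of cytokine signalling, with 0 UMIs in Id2+/+ erythroid-like cells and a ratio of 0.0297 (0.0147 to 0.0540) in Id2Δ/Δ. Next came Cish, a feedback inhibitor of this signal, at 0.144 in Id2+/+ and Lyn, a Src family kinase, at 0.121 in Id2Δ/Δ. Tfrc was among the markers that named the erythroid-like clusters, so its rise partly follows from the naming. The median of the erythropoietin signalling list was 0.398 and 0.370.

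Few of the other carbonic anhydrases could be set beside Car1 and Car2. Of 14 listed, 2 in Id2+/+ and 3 in Id2Δ/Δ had enough UMIs, and every one of these was lower in erythroid-like cells. They were Car3 and Car9, joined in Id2Δ/Δ by Car13. Car3 was at 0.249 (0.0861 to 0.592) and 0.175 (0.103 to 0.284). Of 12 erythroid transcription factors, 2 were higher in each library, Klf1 (13.4 and 18.1) and Gata1 (4.06 and 4.12), and 4 were lower, with Gata2 (0.0871 and 0.0429) and Nfe2 (0.235 and 0.298) at the low end and Myb and Lmo2 as the other two. Klf1 and Gata1 were among the markers that named the erythroid-like clusters, so their rise partly follows from the naming. The median of the 12 was 0.937 and 1.34.

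Erythroid-like cells were next ordered by the share of their UMIs that came from 4 haemoglobin genes and divided into tertiles within each library, a split made after the values were seen. The boundaries were at 0.264% and 0.850% haemoglobin in Id2+/+ and at 0.226% and 0.652% in Id2Δ/Δ, with 2 and 0 of 35 cells and 9 and 11 of 156 cells within 10% of a boundary. From the lowest to the highest tertile, 2 members were at least 2-fold higher in Id2+/+ (Slc4a1 and Cldn13; 3.68% of all genes tested) and 1 in Id2Δ/Δ (Slc4a1; 2.99%). No member was at least 2-fold lower, against 4.97% and 4.55% of all genes.

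Most Slc4a1 came from the tertile with most haemoglobin. In Id2+/+ it had 2 UMIs in the lowest, 1 UMI in the middle and 64 UMIs in the highest tertile, found in 2 of 12, 1 of 11 and 10 of 12 cells. In Id2Δ/Δ it had 6, 15 and 121 UMIs, found in 6, 12 and 34 of 52 cells. The ratio of highest to lowest was 44.4 (11.8 to 374) and 24.4 (10.9 to 67.8). In the haemoglobin-rich cells, compared after leaving haemoglobin out of both totals, Slc4a1 was higher again, at 7.47 (1.98 to 20.02) and 23.6 (9.32 to 49.9) times the erythroid-like level, on 4 and 7 UMIs.

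Car1 was highest in the lowest tertile. It stood at 2795, 1349 and 1916 CPM from the lowest to the highest tertile of Id2+/+, a ratio of highest to lowest of 0.686 (0.627 to 0.750). In Id2Δ/Δ it stood at 2990, 2114 and 2129 CPM, a ratio of 0.712 (0.684 to 0.741), so that neither library showed a further drop from the middle to the highest tertile. Haemoglobin-rich cells held less still, 0.362 (0.156 to 0.715) and 0.375 (0.194 to 0.655) of the erythroid-like level, on 8 and 12 UMIs. With haemoglobin left out of the totals, Car1 in Id2+/+ stood at 765 CPM in these cells and at 1300 CPM in empty droplets. The part of free RNA in these few UMIs was not tested. Car2 was higher in the highest than in the lowest tertile, by 1.18 (1.12 to 1.25) and 1.21 (1.18 to 1.24). In haemoglobin-rich cells Car2 was at 1.998 (1.66 to 2.39) and 2.44 (2.12 to 2.80) times the erythroid-like level, but 1 cell held 39.7% of its 121 UMIs in Id2+/+ and 43.1% of its 209 UMIs in Id2Δ/Δ. Without that cell the ratio was 1.44 (1.13 to 1.81) and 1.66 (1.37 to 1.98), a setting added after the data were seen. Between the end tertiles the 2 neighbouring carbonic anhydrase genes differed in direction in both libraries.

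The other surface genes lay between these. Cldn13 was higher in the highest tertile by 2.23 (1.83 to 2.73) and 1.87 (1.73 to 2.04), Rhd by 1.64 (1.37 to 1.97) and 1.67 (1.54 to 1.81), and Ank1 by 1.64 (1.004 to 2.69) and 1.80 (1.38 to 2.34). Ermap at 0.950 (0.697 to 1.29) and 1.10 (0.950 to 1.26) and Epor at 0.821 (0.563 to 1.19) and 0.963 (0.819 to 1.13) had intervals that held 1. In the same comparison 5 membrane partners were higher in each library, with none lower, led by Epb42 (5.35), a band 3-bound protein, in Id2+/+ and by Tmod1 (5.14) and Dmtn (4.11) in Id2Δ/Δ. Dmtn, Gypc and Rhag were also among them in Id2+/+, and Epb42 and Sptb in Id2Δ/Δ. Of the transcription factors Sox6 was higher (5.89 and 7.03) and Myb lower (0.285 and 0.222), with Gata2 also lower in Id2Δ/Δ (0.273). Of the erythropoietin signalling genes Kit, the stem cell factor receptor, was lower in both libraries (0.301 and 0.463) and Sh2b3 in Id2Δ/Δ (0.368), with none higher. One Id2Δ/Δ cell of the highest tertile had 57.9% haemoglobin, against 8.91% for the highest Id2+/+ cell.

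**Figure D2:**
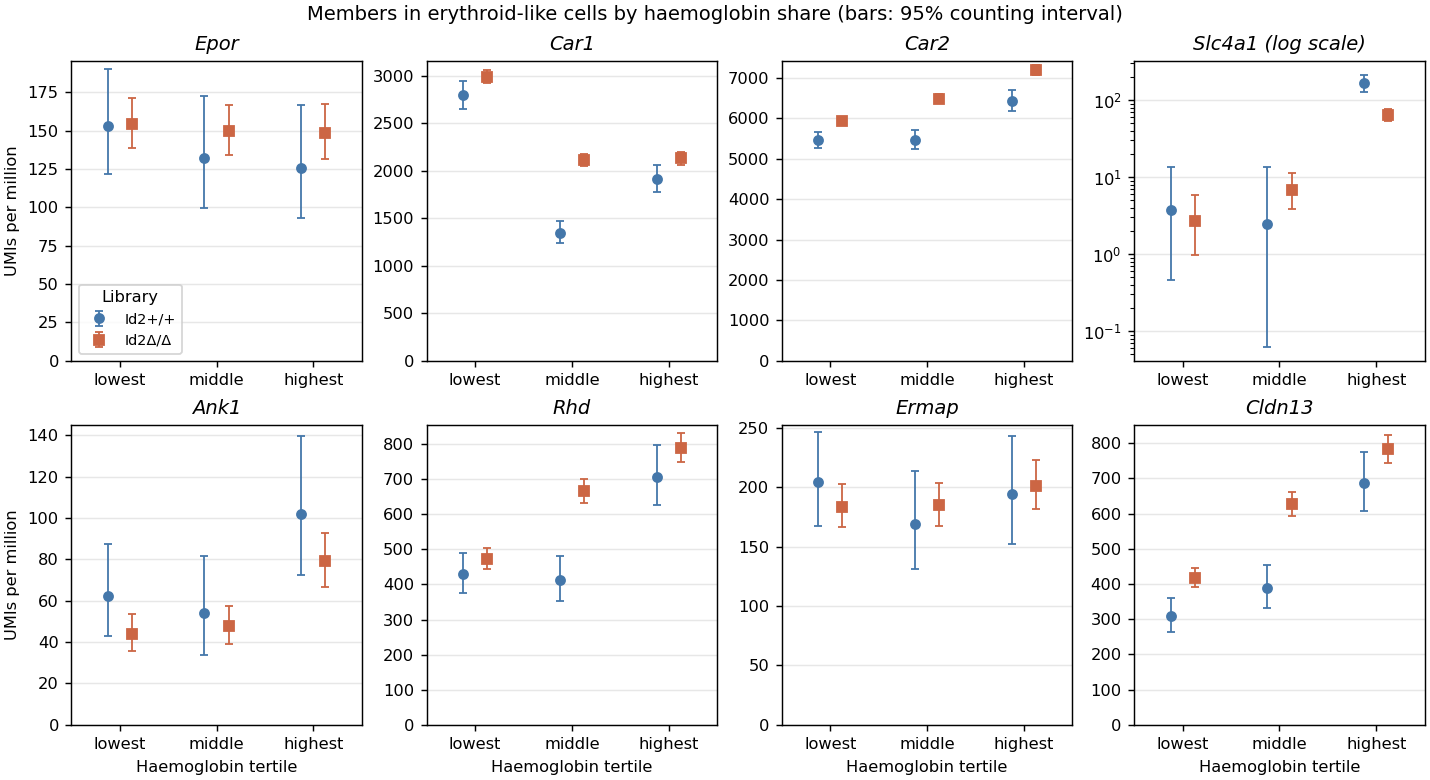
CPM of each member (vertical axis, linear from 0 except Slc4a1 on a log scale) in erythroid-like cells of the lowest, middle and highest haemoglobin tertile of each library, with 95% counting intervals. Slc4a1 appears mostly in the highest tertile (168 and 65.1 CPM), Car1 is highest in the lowest tertile, and Cldn13 and Rhd are highest in the highest tertile.

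Across all kept cells of a library, the genes other than the members whose log level per cell followed each member most closely were sought. The values are Pearson r averaged over the libraries of 333 and 625 cells, and all points of a library share its depth range and its mixture of cell kinds. Klf1, an erythroid transcription factor, was among the 2 closest non-member genes for 6 of the 8 members, with r from 0.579 for Epor to 0.738 for Car1. Rhd and Cldn13 followed each other at 0.747, above any non-member gene for Rhd, of which Slc38a5 came first at 0.725. Ctse was closest to Ermap at 0.705, Fam132a to Epor at 0.588, Smim1 second to Car1 at 0.705 and Nxpe2 second to Ank1 at 0.582 and to Cldn13 at 0.702.

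Klf1 was not among the 2 closest for Car2 and Slc4a1. Car2 followed Fth1 (0.637), the ferritin heavy chain, and Prdx2 (0.596), a peroxiredoxin, and had its best value among the members with Rhd, at 0.544. Slc4a1 followed Acp5 (0.465) and had its best value among the members with Rhd, at 0.290.

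Retained cells held UMIs of every member, at levels that had to be set against free RNA. Haemoglobin, summed over the 4 genes, stood at 956 and 612 CPM in retained cells and at 9123 and 11319 CPM in empty droplets, so that retained cells held 10.5% (10.01 to 10.95) and 5.41% (5.20 to 5.61) of the empty-droplet level. Neutrophil-like cells, which should lack haemoglobin, held 9.85% and 4.04%. In Id2+/+ neutrophil-like cells Car1, at 5.21% (3.54 to 7.41), Car2, at 6.55% (5.56 to 7.66), and Rhd, at 4.50% (2.32 to 7.88), lay below haemoglobin. No member did so in Id2Δ/Δ. A level not above haemoglobin therefore does not show that a member was absent. A member of retained cells was placed above the haemoglobin level when its own interval lay wholly over that of haemoglobin. In Id2+/+ 2 of 8 members did so, where 97.5% of all genes tested did, and in Id2Δ/Δ 5 of 8, where 98.8% did.

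Car2 was the clear case of a member above free RNA. Retained cells held 34.2% (33.1 to 35.4) and 31.2% (30.4 to 32.0) of its empty-droplet level, on 3768 and 8204 UMIs, where the haemoglobin level would give 1153 and 1420 UMIs. Neutrophil-like cells held 6.55% (5.56 to 7.66) and 5.16% (4.48 to 5.91). The retained level was 5.23 (4.45 to 6.18) and 6.06 (5.28 to 6.98) times the neutrophil-like level. It held in the 28 and 44 HSC-like cells, a cluster with Procr, Cdkn1c and Mllt3 among its leading genes, at 31.7% (28.1 to 35.7) and 31.1% (28.6 to 33.7).

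Shares of cells alone would have missed this. With each cell thinned to 5800 UMIs, which left out 66 Id2+/+ retained cells and 0 of Id2Δ/Δ, Car2 was found in 99.5% of retained cells in both libraries and in 92.6% and 85.0% of neutrophil-like cells. Without thinning it was found in 261 of 262 and 416 of 416 retained cells and in 26 of 27 and 40 of 40 neutrophil-like cells. The mean at that depth was 10.4 and 10.6 UMIs per retained cell against 1.78 and 1.68 UMIs per neutrophil-like cell.

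Epor was the second member above the haemoglobin level in both libraries, at 17.1% (12.5 to 23.1) and 21.1% (17.0 to 25.9), on 48 and 115 UMIs. Of these, 18 and 53 UMIs lay in the 47 and 72 megakaryocyte-like cells among the retained, at 24.6% (14.5 to 39.3) and 34.0% (25.1 to 45.3). Against the other retained cells these cells were at 2.14 (1.45 to 3.14) in Id2Δ/Δ, where 3.5% of all genes tested were at least 2-fold higher and Epor was 1 of 8 members. In Id2+/+ the ratio was 1.70 (0.893 to 3.15). Without megakaryocyte-like cells Epor stayed above the haemoglobin level in Id2Δ/Δ at 15.9% (11.99 to 20.8), while in Id2+/+ it was at 14.5% (9.68 to 20.9), overlapping it. In HSC-like cells it had 5 UMIs in each library, with intervals that overlapped that of haemoglobin. Against neutrophil-like cells the retained level was 1.30 (0.609 to 3.18) in Id2+/+ and 5.94 (1.98 to 29.2) in Id2Δ/Δ. At 5800 UMIs it was found in 15.3% and 10.1% of retained cells, in 3.70% and 2.5% of neutrophil-like cells and in 58.8% and 62.2% of erythroid-like cells. Without thinning it was found in 41 of 262 and 92 of 416 retained cells and in 8 of 27 and 2 of 40 neutrophil-like cells, whose median depth was 17626 and 17986 UMIs.

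For the other 6 members no level above free RNA was shown in both libraries. Rhd in retained cells was at 7.31% (5.85 to 9.02), below haemoglobin, and 5.33% (4.45 to 6.34). Cldn13 was at 9.04% (7.23 to 11.2) and 4.77% (3.98 to 5.67). Car1 was at 10.9% (9.65 to 12.2) and 4.49% (4.03 to 4.99), the second of which lay below haemoglobin, but not without the cluster led by Vpreb3, at 4.68% (4.15 to 5.26). In neutrophil-like cells Rhd stood at 26.0 and 28.9 CPM against 42.2 and 29.2 CPM in retained cells, and Cldn13 at 54.1 and 26.2 CPM against 42.2 and 28.8 CPM, with intervals of the ratio that held 1. Car1 stood at 67.1 and 68.8 CPM against 140 and 78.7 CPM, a retained over neutrophil-like ratio of 2.09 (1.44 to 3.13) in Id2+/+ and 1.14 (0.850 to 1.57) in Id2Δ/Δ. At 5800 UMIs Cldn13 was found in 24.0% and 15.9% of retained cells and in 40.7% and 22.5% of neutrophil-like cells.

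Slc4a1, Ank1 and Ermap were above the haemoglobin level in Id2Δ/Δ only, at 21.3% (12.5 to 34.7), 13.8% (8.45 to 21.5) and 9.03% (6.43 to 12.4), on 21, 23 and 43 UMIs. In Id2+/+ their intervals overlapped that of haemoglobin, on 9, 10 and 23 UMIs, and the difference between libraries was not tested. Without megakaryocyte-like cells Ank1 in Id2Δ/Δ, at 10.9% (5.66 to 19.3), and Ermap, at 8.52% (5.63 to 12.4), overlapped haemoglobin too. Slc4a1 in neutrophil-like cells of Id2Δ/Δ was above it as well, at 32.7% (10.3 to 79.5) on 5 UMIs. For none of these 3 did the retained level exceed the neutrophil-like level with an interval above 1. Ank1 had 0 UMIs in Id2+/+ neutrophil-like cells, which allows up to 6.50 CPM, against 4.69 CPM in retained cells.

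**Figure D3:**
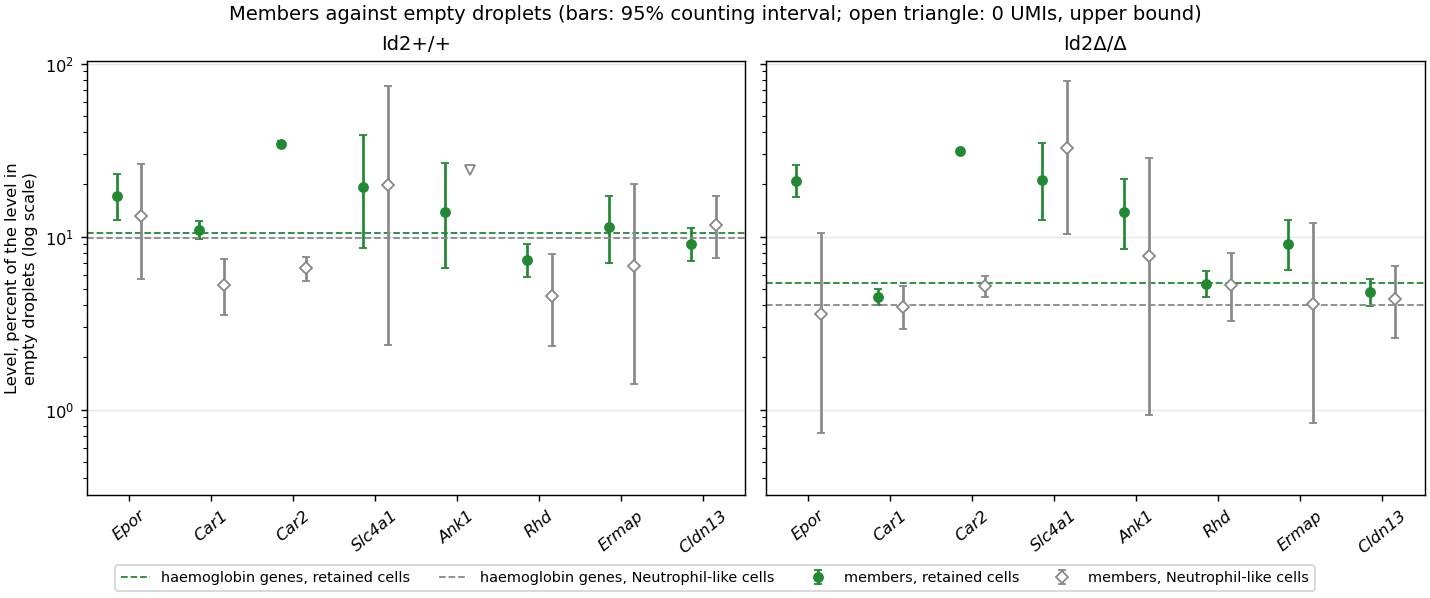
Level of each member as a percent of its level in empty droplets (vertical axis, log scale) in retained and neutrophil-like cells of each library, with 95% counting intervals and dashed lines at the level of the summed haemoglobin genes. Car2 in retained cells (34.2% and 31.2%) lies far above both lines, Epor in retained cells lies above them to a smaller degree, and Rhd, Cldn13 and Car1 lie near or below them.

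One retained cell weighed on Car1. The cell with 83 of the 299 Car1 UMIs of Id2+/+ retained cells had 11481 UMIs and lay in a megakaryocyte-like cluster, and 6 of its UMIs were of Klf1. The top cell of Id2Δ/Δ had 18 of 369. Without these cells Car1 was at 7.90% (6.87 to 9.06) of the empty-droplet level in Id2+/+ and 4.28% (3.83 to 4.76) in Id2Δ/Δ, below haemoglobin in both. The 1 of 6 members tested that was at least 2-fold higher in megakaryocyte-like than in other retained cells of Id2+/+ was Car1, at 2.46 (1.95 to 3.11), where 2.91% of all genes were. That cell held 59.7% of the 139 Car1 UMIs of these cells, and without it the ratio was 1.01 (0.733 to 1.38), also a setting added later. In Id2Δ/Δ the ratio over all cells was 1.12 (0.888 to 1.40).

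Between the genotypes, 1 of 8 members differed by at least 1.5-fold, with an interval off 1, in erythroid-like cells: Slc4a1, lower in Id2Δ/Δ at 0.443 (0.329 to 0.601), where 6.09% of all genes were lower. None was higher, where 1.49% of all genes were. The erythroid-like cells were 10.5% (7.43 to 14.3) of Id2+/+ and 24.96% (21.6 to 28.5) of Id2Δ/Δ cells, and 5.40% (3.17 to 8.50) and 20.9% (17.7 to 24.4) without the deepest 5% of cells. In all, 27 of the 35 Id2+/+ cells and 80 of the 156 Id2Δ/Δ cells lay in clusters 10 and 6, which held no cell of the other library. Car1 and Ermap were among the leading genes of both these clusters, and Rhd and Cldn13 among those of cluster 4, the shared one. Slc4a1 was uneven between cells. The 2 Id2+/+ cells with most Slc4a1 had 19 and 18 UMIs, 55.2% of the total, and no Id2Δ/Δ cell had more than 10 UMIs. Without the top cell of each library the ratio was 0.560 (0.399 to 0.796), a setting added after the data were seen. Within the highest haemoglobin tertile it was 0.388 (0.284 to 0.534), and within cluster 4 (8 and 76 cells), 0.183 (0.134 to 0.254). In that cluster haemoglobin was 2.86% of UMIs in Id2+/+ and 1.32% in Id2Δ/Δ, and its part in the difference was not tested.

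The other members of erythroid-like cells lay within 1.5-fold. Cldn13 was at 1.35 (1.24 to 1.48), Rhd at 1.25 (1.15 to 1.36), Car1 at 1.16 (1.12 to 1.21) and Car2 at 1.13 (1.10 to 1.16), all higher in Id2Δ/Δ. Ank1 was at 0.780 (0.620 to 0.990). Epor at 1.09 (0.928 to 1.28) and Ermap at 0.995 (0.868 to 1.14) had intervals that held 1. In the lowest haemoglobin tertile Car1, Rhd and Cldn13 were at 1.07, 1.10 and 1.35, in the middle at 1.57, 1.61 and 1.61, and in the highest at 1.11, 1.12 and 1.14. Of the partner genes tested 1 of 19 membrane partners was lower (Piezo1, a mechanosensitive channel, 0.574), as were 2 of 12 erythropoietin signalling genes (Pim1, 0.490, and Kit, 0.491) and 1 of 12 transcription factors (Gata2, 0.386), with none higher.

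In retained cells 1 of 8 members differed by at least 1.5-fold: Car1, at 140 CPM in Id2+/+ and 78.7 CPM in Id2Δ/Δ, a ratio of 0.562 (0.481 to 0.657), where 8.25% of all genes were lower. None was higher, where 1.72% were. Of the retained cells 147 of 262 Id2+/+ cells lay in cluster 1, led by Jun and Fos, which held no Id2Δ/Δ cell, and 149 of 416 Id2Δ/Δ cells lay in cluster 0, led by Cd74, with 8 Id2+/+ cells. Without the top Car1 cell of each library the ratio was 0.737 (0.621 to 0.878), no longer past 1.5-fold. Without megakaryocyte-like cells, a setting added later, Car1 was at 0.751 (0.614 to 0.921) and Rhd, at 0.621 (0.446 to 0.869), became the 1 member past 1.5-fold. Without the cluster led by Vpreb3, also added later, Car1 was at 0.566 (0.479 to 0.668), Cldn13 joined it at 0.643 (0.475 to 0.872), and Rhd was at 0.768 (0.575 to 1.03), an interval that held 1. With all retained cells Rhd at 0.693 (0.527 to 0.915) and Cldn13 at 0.683 (0.519 to 0.902) were lower by less than 1.5-fold. Summed haemoglobin moved the same way, 956 CPM in Id2+/+ and 612 CPM in Id2Δ/Δ, and its part in the Car1, Rhd and Cldn13 values was not tested. Car2, the member clearly above free RNA, was at 0.991 (0.954 to 1.03), which became 1.12 (1.07 to 1.17) with the empty-droplet profile subtracted and 1.06 (1.01 to 1.11) without megakaryocyte-like cells. Epor was at 1.09 (0.773 to 1.56), and at 1.97 (1.19 to 3.45) with that profile subtracted, which is past 1.5-fold.

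Slc4a1 at 1.06 (0.466 to 2.63) and Ank1 at 1.05 (0.479 to 2.46) had too few UMIs in retained cells for a 1.5-fold difference to be detectable. For Ermap, at 0.851 (0.502 to 1.48), a 1.5-fold fall in Id2Δ/Δ lay within the interval and a 1.5-fold rise just outside it. Of the partner genes tested in retained cells 1 of 19 membrane partners (Rhag, the Rhesus-associated glycoprotein, 0.604), 2 of 15 erythropoietin signalling genes (Kit, 0.657, and Stat5a, 0.661) and 1 of 12 transcription factors (Sox6, 0.617) were lower, with none higher.

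**Figure D4:**
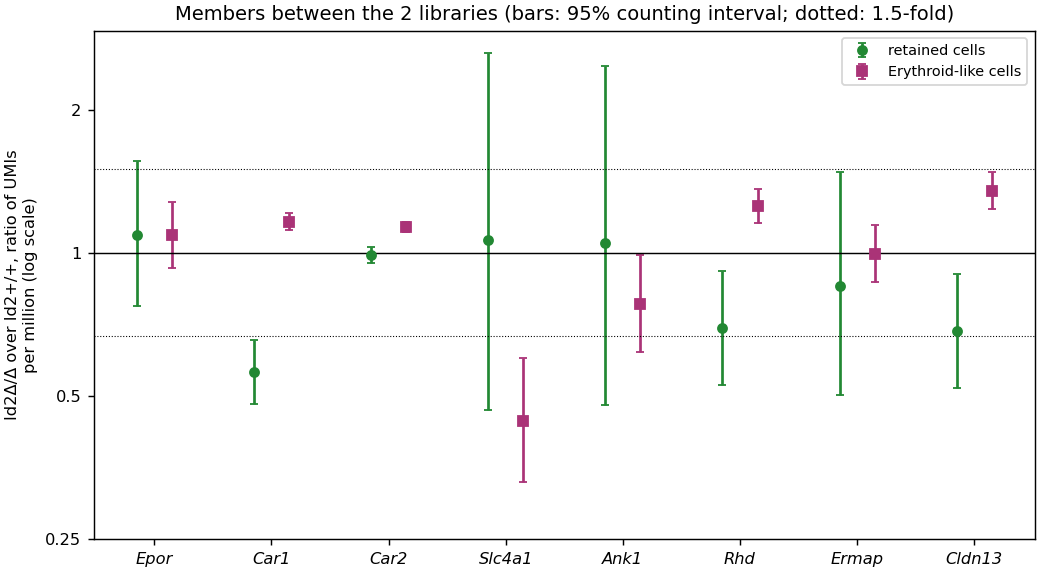
Ratio of each member's CPM in Id2Δ/Δ over Id2+/+ (vertical axis, log scale) in retained and erythroid-like cells, with 95% counting intervals, a line at 1 and dotted lines at 1.5-fold either way. Slc4a1 is lower in Id2Δ/Δ erythroid-like cells (0.443) and Car1 in Id2Δ/Δ retained cells (0.562), while Car2 lies near 1 in retained cells (0.991).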

How the data were processed

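The authors deposited raw UMI counts per gene and barcode, not normalized, for 1 library per genotype, with 737280 barcodes each and no call of cells. The submitters' processing notes name Cell Ranger 2.2.0 and mm10. Barcodes with at least 10% of the UMIs at the 99th percentile of the 1000 deepest were called cells, and barcodes at or over 10% mitochondrial UMIs were dropped. No doublet caller was run. Cells were clustered together with scanpy 1.11.5 and leidenalg 0.10.2 (2000 variable genes, 20 components, 15 neighbours, resolution 1, seed 0) without the members, which were also left out of the naming lists. A cluster took a name from 4 or more markers with a log2 fold above 1 that were present in 25% of its cells or more, provided that its HSC markers were lower on average. It was called haemoglobin-rich at 10% haemoglobin. Megakaryocyte-like clusters stayed with the retained cells. The HSC-like name was given apart from this rule, to the retained cluster with 7 HSC markers past the same fold and share limits.

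Counts were summed per kind and library and scaled to CPM. Intervals are exact Poisson, exact conditional binomial (ratios) and exact Clopper-Pearson (shares), at 95%, and were tested on simulated data. Ratios needed 20 UMIs. No p-value was computed, since each genotype is 1 library. The genes named were all 8 members, the 2 genes most alike to each, and the 2 highest and 2 lowest of each pathway list in a comparison. Tmod1, Dmtn, Epb42, Gypc, Rhag, Sptb, Myb, Lmo2, Kit and Stat5a were, where outside that rule, named after their values were seen. Members and lists were chosen with earlier results of these data known. Sequences are not printed here, and 1 gene that the rule names is not reported here. Alternatives covered cell calling, clustering, scaling, the minimum count, the empty-droplet range and single cells or clusters left out.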

Additional observations from a re-analysis of the deposited data

Results flagged for a closer look

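For 3 members the ratio of Id2Δ/Δ to Id2+/+ lay on opposite sides of 1 in the 2 cell kinds, with both counting intervals off 1. How many of all genes met the same rule was not counted, so these 3 cannot be set against such a share. Car1 was at 1.16 (1.12 to 1.21) in erythroid-like cells and 0.562 (0.481 to 0.657) in retained cells. Rhd was at 1.25 (1.15 to 1.36) and 0.693 (0.527 to 0.915), and Cldn13 at 1.35 (1.24 to 1.48) and 0.683 (0.519 to 0.902). Without the retained cluster led by Vpreb3 the interval of Rhd in retained cells held 1, at 0.768 (0.575 to 1.03). With 1 library per genotype, the difference between the cell kinds was not tested. In retained cells these 3 genes lay near or below the haemoglobin level of free RNA, and summed haemoglobin there was also lower in Id2Δ/Δ (612 against 956 CPM).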

How the results depend on the processing

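No paired analysis was possible because 1 library stood for each genotype. Across 7 ways of calling or clustering cells the count of members at least 2-fold higher in erythroid-like cells stayed at 8 in both libraries. Resolutions of 0.5 and 1.5 gave 8 and 14 clusters in place of 12, with the same kind for all 958 cells, as when the members were allowed into the clustering. In the retained cells 2 members differed between genotypes, in place of 1, when every barcode with 1000 UMIs and 500 genes was kept (Cldn13 joined Car1 at 0.664), and 0 did without the top cell of each member. Members above the haemoglobin level in Id2Δ/Δ numbered 3 in place of 5 with empty droplets of 1 to 20 UMIs. In alternatives chosen after seeing the data, without megakaryocyte-like cells 1 member was above in Id2+/+ and 3 were in Id2Δ/Δ. Without the retained cluster led by Vpreb3 there were 2 members past 1.5-fold between genotypes in retained cells, Car1 and Cldn13, and the counts above haemoglobin were 2 and 5 as before. With neutrophil-like cells as the reference 2 were above in Id2Δ/Δ and 2 in Id2+/+, Car2 in both, with Car1 in Id2+/+ and Epor in Id2Δ/Δ. Subtracting the empty-droplet profile made Epor, at 1.97 (1.19 to 3.45), the 1 member past 1.5-fold with an interval off 1 in retained cells, beside Slc4a1 at 1.64 (0.532 to 6.59), and gave no value for 5 members with 3 or fewer UMIs left in a library, Car1 among them. The cause of these shifts was not tested. Without the deepest 5% of cells the erythroid-like share of Id2+/+ was 5.40% in place of 10.5%. Of the other values recomputed 971 stayed within the interval of the main setting and 154 fell outside it. No ratio past the fold limit changed direction, but Car2 between genotypes in retained cells, at 0.991, was above 1 with its interval off 1 at 1.12 with the empty-droplet profile subtracted, 1.06 without megakaryocyte-like cells and 1.04 with the median ratio of all genes set to 1. Depth limited Slc4a1, Ank1 and Ermap in retained cells, and intervals cover counting error only.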
